A study of Mus musculus with 12 samples.

Results

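Mouse CD8 T cells cultured with retinoic acid were compared with and without transforming growth factor beta (TGFb), over all genes. The comparison holds the 3 libraries titled IL-2 + IL-15 + TGFb + RA and the 3 titled IL-2 + IL-15 + RA, 6 of the 12 libraries of the study, chosen by their titles. The cells came from the spleen of C57BL/6 mice, and RNA for stranded mRNA sequencing was taken on day 7 of culture. The study title concerns CD8 tissue-resident memory cells made in vitro. Both groups received IL-2 and IL-15, cytokines that sustain CD8 T cells, and RA (all-trans retinoic acid, the active form of vitamin A), so TGFb is the 1 named addition. The remaining 6 libraries, 3 with IL-2 + IL-15 alone and 3 with IL-2 + IL-15 + TGFb, serve as the TGFb effect without added RA. The sources used here give no doses, no age of the mice, no genotype beyond the strain and no way of activation. The labels call the samples biological replicates without saying whether a number stands for 1 mouse, so the p-values speak only of the spread among the libraries, which may be technical.

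TGFb binds a type II receptor that recruits and activates a type I receptor, which phosphorylates SMAD2 and SMAD3. With SMAD4 these enter the nucleus, where they induce, among other genes, inhibitors of the same pathway. In CD8 T cells TGFb is known for inducing CD103, the integrin alpha E chain that binds E-cadherin of epithelial cells, and for restraining effector differentiation, while retinoic acid is known for the gut homing receptors CCR9 and integrin alpha 4 beta 7.

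The 6 libraries held 18300206 to 31120721 counts, and 14009 genes entered the fit. The first principal component of the log2 CPM (a gene's counts relative to the library's total, scaled by TMM) held 82.5% of the variance and separated the groups, and RA replicate 3 stood apart from the other RA libraries on the second. Transcripts that define CD8 T cells were abundant in every library, among them Cd8a (858, 974 and 1190.1 CPM with RA and 3045, 3145 and 3020.3 CPM with TGFb + RA, replicates 1 to 3 in this order here and below). Of the B cell genes Ms4a1 and Pax5 and the macrophage genes Csf1r, Cd14 and Adgre1, no library held more than 6 counts. Other members of the B cell marker list were not silent, and of the 5 tested 4 rose and none fell, as given below. Lyz2, S100a9 and S100a8, genes of myeloid cells, reached 323, 177 and 97 counts in TGFb + RA replicate 3 against at most 6 in the other 5 libraries, and their part in the results was not tested. Genes of cytosolic ribosomal proteins took 9.28% ± 0.693 (SD, n = 3) of the counts with RA and 4.97% ± 0.354 with TGFb + RA, which did not overlap. The share of mitochondrially encoded genes, a sign of RNA and cell quality, was 1.81% ± 0.069 with RA and 1.37% ± 0.092 with TGFb + RA, with 9 of 14 such genes lower and none higher, and its part in the results was not tested. Exact two-sided permutation tests gave p = 0.1 for either share, the smallest that 3 against 3 libraries can give.

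Most tested genes differed between the groups. At an edgeR adjusted p under 0.05, 8440 of 14009 genes (60.2%) differed, of which 4124 (29.4%) were higher and 4316 (30.8%) lower with TGFb + RA. At least 2-fold changes were fewer, with 909 genes higher (6.49%) and 1446 lower (10.3%), and the 3 libraries of one group lay wholly above or below those of the other for 9042 genes (64.5%). With such a background, a list of genes is read below against these shares and against the median log2 fold change of all tested genes, -0.003. In bulk RNA, fewer cells of a type and less RNA per cell cannot be told apart. Log2 fold changes are given for TGFb + RA over RA, ± SE.

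Several inhibitors of the TGFb pathway and its type II receptor gene rose, while Smad3, the gene of a SMAD that the receptor activates, fell. Of 21 tested feedback and target genes, 12 rose and 6 fell, with a median log2 fold change of 0.68. Pmepa1 (ENSMUSG00000038400, chr2:173224458-173276533, - strand), whose protein keeps SMADs from the receptor, had 9.15, 9.81 and 10.3 CPM with RA and 91.6, 108 and 99.8 CPM with TGFb + RA. Its libraries did not overlap, with about the same level within each group (log2 fold change 3.36 ± 0.08, edgeR adjusted p = 3.19e-12). Ldlrad4, a relative of Pmepa1 that also holds back SMADs, had 13.7, 10.3 and 11.2 CPM with RA and 147, 144 and 147 CPM with TGFb + RA, again without overlap (log2 fold change 3.64 ± 0.07, edgeR adjusted p = 3.19e-12). Exons of other genes on the opposite strand overlap 52.1% of Ldlrad4's exons, and the strand setting of the counting is not given, so reads of both cannot be told apart. Skil, which encodes the SMAD repressor SnoN, rose (log2 fold change 1.85 ± 0.06, edgeR adjusted p = 1.24e-10), as did its relative Ski (0.72 ± 0.05), the inhibitory Smad7 (0.93 ± 0.07), the ubiquitin ligases Smurf1 (0.64 ± 0.07) and Smurf2 (0.68 ± 0.06) and the corepressor Tgif1 (0.50 ± 0.07). Tgif2 fell (-0.68 ± 0.07), with 61.6% of its exons overlapped on the opposite strand. The inhibitors of DNA binding split: Id3 rose (1.47 ± 0.12, edgeR adjusted p = 1.95e-07) and Id2 fell (-3.13 ± 0.15, edgeR adjusted p = 2.09e-09). Id2 had 339.7, 338 and 229.7 CPM with RA and 32.7, 36.6 and 34.2 CPM with TGFb + RA, so the lowest RA library still held several times the highest TGFb + RA library. Id1 rose at a low level (1.61 ± 0.48, edgeR adjusted p = 0.0105), a call lost without TGFb + RA replicate 2 (adjusted p = 0.0513). Genes often induced by TGFb in other cell types fell here, namely Cdkn1a (-1.36 ± 0.23), Klf10 (-0.75 ± 0.14) and Bhlhe40 (-2.26 ± 0.16), while Jun rose (1.53 ± 0.07).

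Of 15 tested receptor and SMAD genes, 7 rose and 5 fell, with a median of 0.24. Tgfbr2, the type II receptor, had 207, 188 and 183 CPM with RA and 354, 342 and 359 CPM with TGFb + RA. All TGFb + RA libraries lay above the RA libraries (log2 fold change 0.87 ± 0.05, edgeR adjusted p = 1.18e-08). Tgfbr1, the type I receptor, did not pass the test (0.13 ± 0.08, edgeR adjusted p = 0.153), though it did without TGFb + RA replicate 3 (adjusted p = 0.0424), and the coreceptor Tgfbr3 rose (1.66 ± 0.24). The activin and BMP receptors Acvr2a (2.67 ± 0.14), Acvr1b (1.02 ± 0.06) and Bmpr2 (1.03 ± 0.08) rose, and Acvr1 (-2.15 ± 0.55) and Bmpr1a (-0.44 ± 0.11) fell. Acvr1 was at a low level, with 45 counts over the RA and 11 over the TGFb + RA libraries. Smad3 fell from 119 ± 5.14 to 35.0 ± 1.64 CPM (SD, n = 3; -1.76 ± 0.05, edgeR adjusted p = 4.99e-11). Smad2 fell slightly (-0.21 ± 0.06, edgeR adjusted p = 0.00717), the common partner Smad4 did not pass the test (-0.06 ± 0.06, edgeR adjusted p = 0.394), and Smad1 (0.56 ± 0.14) and Smad5 (0.24 ± 0.06) of the BMP branch rose. Among 12 tested genes for ligands and their release from the latent form, 4 rose and 7 fell. Tgfb3 rose (2.54 ± 0.25, edgeR adjusted p = 1.61e-06), and Tgfb1 was slightly lower (-0.19 ± 0.06, edgeR adjusted p = 0.0154), a call lost without TGFb + RA replicate 1 (adjusted p = 0.0601). Integrin chains that take part in releasing TGFb fell: Itgb5 (-3.01 ± 0.24), Itgb3 (-2.01 ± 0.17) and Itgav (-0.36 ± 0.09). The latent binding proteins Ltbp3 (-1.47 ± 0.14) and Ltbp4 (-0.73 ± 0.15) and the anchor Nrros (-1.07 ± 0.07) fell, and the processing protease Furin (0.71 ± 0.06) and the inhibin chain Inha (1.49 ± 0.26) rose.

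Genes of the retinoid pathway were also changed, although both groups had RA. Cyp26b1, the enzyme that degrades retinoic acid and is induced by it, had 6.78, 5.87 and 15.9 CPM with RA and 1.16, 0.941 and 0.920 CPM with TGFb + RA. Every RA library lay above every TGFb + RA library, and RA replicate 3 was the highest (log2 fold change -3.24 ± 0.37, edgeR adjusted p = 6.24e-06). Stra6, a retinol transporter, had 119 counts over the RA libraries and 6 over the TGFb + RA libraries, which is 22.2 times lower per library size (exact 95% interval 9.91 to 61.8, counting error only). Rdh10, which makes the precursor retinal, rose (0.69 ± 0.11, edgeR adjusted p = 0.000100), as did the receptor cofactor Nrip1 (0.60 ± 0.08, edgeR adjusted p = 3.56e-05). Of 12 tested retinoid genes, 7 rose and 2 fell, and without RA replicate 2 only 4 rose.

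The genes of CD103 and its ligand rose, while other genes linked to tissue residency went both ways. Itgae, the gene of CD103 (ENSMUSG00000005947, chr11:73090583-73147446, + strand), had 129, 157 and 277 CPM with RA and 3106, 3297 and 3072 CPM with TGFb + RA. The lowest TGFb + RA library was more than 10 times the highest RA library (log2 fold change 4.07 ± 0.25, edgeR adjusted p = 1.69e-08), as the plot of 16 genes by library shows. Cdh1, the gene of E-cadherin, had 33.1, 28.4 and 10.8 CPM with RA and 295, 304 and 263 CPM with TGFb + RA, also without overlap (3.57 ± 0.26, edgeR adjusted p = 8.66e-08). Cd69, which keeps T cells in tissue by binding the exit receptor S1PR1, rose from 26.7 ± 1.80 to 52.3 ± 1.70 CPM (0.97 ± 0.08, edgeR adjusted p = 3.24e-07). Hpgds, a prostaglandin D synthase (3.23 ± 0.09), Nt5e, the enzyme CD73 (1.36 ± 0.07), the adhesion receptor Adgrg1 (3.87 ± 0.20), the inhibitory receptor Cd101 (1.15 ± 0.09), the aryl hydrocarbon receptor Ahr (2.50 ± 0.17) and the transcription factor Runx3 (0.44 ± 0.07) rose. Zfp683, the gene of the residency factor Hobit, moved the other way, with 26.0, 26.3 and 29.7 CPM with RA and 1.16, 1.35 and 0.993 CPM with TGFb + RA. No library of one group came near those of the other (-4.53 ± 0.16, edgeR adjusted p = 2.25e-10). Prdm1, the gene of Blimp1 (-0.35 ± 0.11), the chemokine receptor Cxcr6 (-0.49 ± 0.11) and the ATP receptor P2rx7 (-1.03 ± 0.11) fell. Itga1, the gene of CD49a, overlapped between the groups and did not pass the test (-0.14 ± 0.23, edgeR adjusted p = 0.608), and without RA replicate 3, its lowest RA library, it was lower with TGFb + RA (log2 fold change -0.43, adjusted p = 0.0202). Of all 38 tested residency genes, 20 rose and 12 fell, with a median of 0.51.

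**Figure D1:**
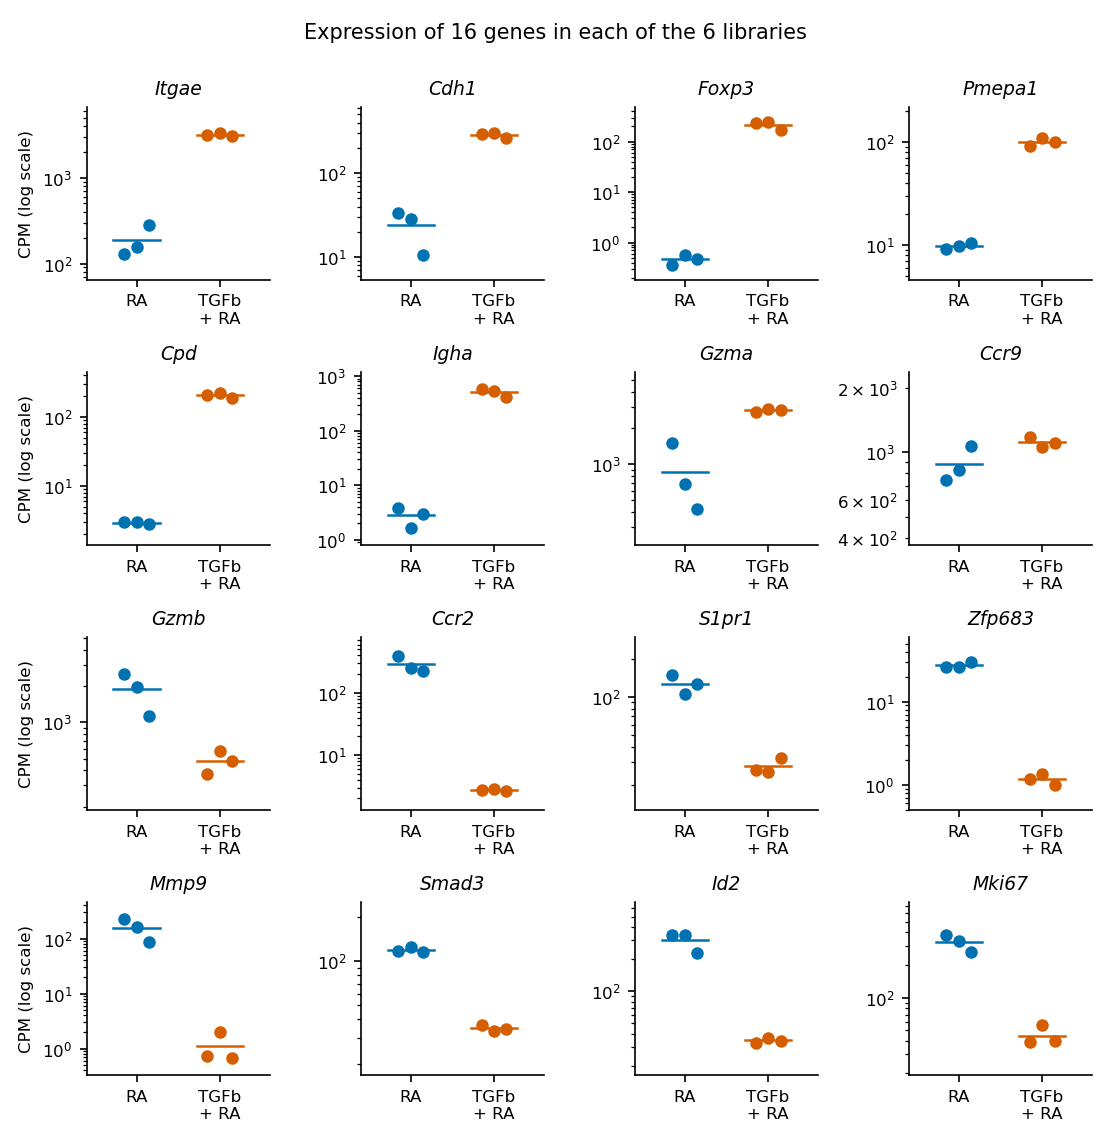
Normalised expression (CPM, log scale, range set per gene) of 16 genes in the 3 RA libraries (blue) and the 3 TGFb + RA libraries (orange), with the group mean as a line. Itgae, Cdh1, Foxp3, Pmepa1, Cpd, Igha and Gzma are higher in every TGFb + RA library, 8 others are lower in every one, and Ccr9 overlaps.

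Of the receptor genes for leaving tissue and for entering inflamed sites more fell than rose. A list of gut homing genes, which also holds Itgae and Cd8a, went both ways. S1pr1, which guides T cells out of tissue and into lymph, had 148, 104 and 125 CPM with RA and 26.4, 25.1 and 32.5 CPM with TGFb + RA. The groups did not overlap (-2.17 ± 0.12, edgeR adjusted p = 7.24e-09). Klf2, the factor that drives S1pr1, had 31.8, 12 and 36.0 CPM with RA and 11.9, 18.7 and 22.7 CPM with TGFb + RA. It overlapped and did not pass the test (-0.54 ± 0.31, edgeR adjusted p = 0.145), though it was lower without RA replicate 2, the lowest RA library (log2 fold change -0.93, adjusted p = 0.00173). Ccr7, a lymph node homing receptor, rose (1.10 ± 0.14, edgeR adjusted p = 1.60e-05). Tcf7, the memory factor TCF1, had 438, 434 and 867 CPM with RA and 694, 663 and 726 CPM with TGFb + RA. RA replicate 3 was the highest of all 6, and the difference did not pass the test (0.26 ± 0.21, edgeR adjusted p = 0.294), while without that library it was higher with TGFb + RA (log2 fold change 0.65, adjusted p = 5.89e-05). Ly6c2 fell (-2.99 ± 0.17, edgeR adjusted p = 1.19e-08), with 13.9% of its 50-base words shared with Ly6c1. Of 26 tested circulation and egress genes, 3 rose and 15 fell (median -0.51), and without RA replicate 3 the number that rose was 5.

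Among receptors for the gut, Ccr9 had 743, 825 and 1075 CPM with RA and 1177, 1054 and 1105 CPM with TGFb + RA. RA replicate 3 lay among the TGFb + RA libraries. The difference in Ccr9 passed the test (log2 fold change 0.34 ± 0.13, edgeR adjusted p = 0.0363). It no longer did without RA replicate 1 (adjusted p = 0.176), RA replicate 2 (0.136), TGFb + RA replicate 1 (0.105) or TGFb + RA replicate 3 (0.0713). The call was also lost with DESeq2's Wald test (adjusted p = 0.128) and with edgeR on the 6 libraries alone (0.0524). Of 9 tested gut homing genes, 3 rose and 3 fell, which is 66.7% of the list against 60.2% of all tested genes. Itga4, the alpha 4 chain of the gut homing integrin, fell from 939.7 ± 142 to 287 ± 53.2 CPM (-1.71 ± 0.13, edgeR adjusted p = 1.45e-07), and its partner Itgb7 did not pass the test (-0.04 ± 0.06, edgeR adjusted p = 0.541). Gpr15, a colon homing receptor, stayed under 1 CPM in all 6 libraries, with 24 counts over the RA and 58 over the TGFb + RA libraries (1.10 ± 0.45, edgeR adjusted p = 0.0512). It passed without the filter on low counts (adjusted p = 0.0170), with DESeq2 (0.00944), with edgeR on the 6 libraries alone (0.00795) and with the replicate number as a block (0.0166). Ccr2, the receptor for monocyte-attracting chemokines, had 391, 247 and 228 CPM with RA and 2.70, 2.85 and 2.61 CPM with TGFb + RA. The TGFb + RA libraries held far less than the RA libraries, at a log2 fold change of -6.72 ± 0.26, edgeR adjusted p = 5.10e-10. The chemokine receptor gene Ccr1 fell as well (-5.16 ± 0.34, edgeR adjusted p = 3.70e-08). Of 17 tested skin and inflammatory homing genes, 4 rose and 11 fell, with Gcnt1, an enzyme that builds selectin ligands, the highest (2.58 ± 0.15, edgeR adjusted p = 1.29e-08).

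Adhesion molecules fell more often than they rose, at 15 against 7 of 26 tested. Itgal, the alpha chain of LFA1, which binds ICAM1, fell from 1453 ± 118 to 384 ± 33.1 CPM (-1.92 ± 0.07, edgeR adjusted p = 2.96e-10). Itgb1 (-1.92 ± 0.10), the hyaluronan receptor Cd44 (-2.001 ± 0.08) and Itgax (-2.35 ± 0.21) fell, and Cd96, a receptor for nectin-like proteins, rose (1.38 ± 0.05, edgeR adjusted p = 1.37e-10).

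Granzyme genes went both ways. Gzmb, the granzyme that triggers apoptosis, had 2535, 1984 and 1133 CPM with RA and 375, 581 and 475 CPM with TGFb + RA. The TGFb + RA libraries were all lower, and RA replicate 3 was the lowest of its group (-1.98 ± 0.24, edgeR adjusted p = 9.03e-06). Gzma had 1487, 681 and 428 CPM with RA and 2700.5, 2887 and 2817 CPM with TGFb + RA and was higher in every TGFb + RA library (1.69 ± 0.31, edgeR adjusted p = 0.000332). Prf1, the gene of perforin, which opens the target membrane, fell from 138 ± 55.9 to 37.6 ± 2.20 CPM (-1.88 ± 0.26, edgeR adjusted p = 3.88e-05). Gzmc (-2.77 ± 0.47, edgeR adjusted p = 0.000205) and Gzmd (-4.94 ± 0.54, edgeR adjusted p = 3.62e-06) fell too. Of the 50-base words of Gzmd, 12% occur in Gzme, so counts of that gene cluster are uncertain, while Gzmb and Gzmc share none. Of 27 tested cytotoxic genes, 7 rose and 13 fell. Ifng, the gene of interferon gamma, was under 3 CPM in all 6 libraries and did not pass the test (-1.89 ± 1.16, edgeR adjusted p = 0.176). It was lower in an edgeR fit of the 6 libraries alone (log2 fold change -1.84, adjusted p = 0.0147). Exons of other genes on the same strand overlap 25.9% of Ifng's exons. Ccl5, a chemokine, had 1181, 802 and 777 CPM with RA and 1547, 962 and 920.0 CPM with TGFb + RA, which overlap (0.31 ± 0.20, edgeR adjusted p = 0.193), and passed without RA replicate 1, its highest RA library (adjusted p = 0.0404). Of 19 tested cytokines and chemokines, 5 rose and 6 fell, which is 57.9% of the list, near the 60.2% of all tested genes. The TNF family ligand Tnfsf14 (-3.73 ± 0.23) and Csf1 (-3.70 ± 0.41) fell, and the chemokine Cxcl10 (3.77 ± 0.38) rose at a low level.

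The gene of FOXP3 rose, and those of the effector factors T-bet and Eomes fell. Foxp3, the master factor of regulatory T cells (ENSMUSG00000039521, chrX:7573644-7595245, + strand), had 0.364, 0.564 and 0.476 CPM with RA and 236, 239.7 and 167 CPM with TGFb + RA. The groups lay far apart, at a log2 fold change of 8.80 ± 0.22, edgeR adjusted p = 7.49e-12. Other exons overlap 18.7% of Foxp3's own on the opposite strand and 18.6% on the same strand, so its counts are uncertain in part. The 5 CD4 T cell markers, none at 0, summed to 146 to 167 CPM with RA and 240.2 to 313 with TGFb + RA, Foxp3 included. With TGFb + RA, Foxp3 held 4450, 7640 and 4536 of the 5641, 9753 and 6363 summed counts, and the 4 other markers fell. The part of CD4 T cells in the results was not tested. Cd4 itself was low and fell (3.19, 2.41 and 1.95 CPM with RA and 0.370, 0.282 and 0.736 CPM with TGFb + RA; -2.43 ± 0.34, edgeR adjusted p = 4.18e-05), as did Zbtb7b, the factor of the CD4 lineage (-1.45 ± 0.10). Ikzf4, the gene of Eos, which works with FOXP3, rose (1.84 ± 0.09, edgeR adjusted p = 4.29e-09), and of 20 tested regulatory T cell genes 8 rose and 8 fell. Tbx21, the gene of T-bet, fell from 171 ± 32.7 to 56.6 ± 2.31 CPM (-1.59 ± 0.12, edgeR adjusted p = 1.40e-07), and its relative Eomes fell from 101 ± 28.6 to 29.1 ± 7.16 CPM (-1.78 ± 0.23, edgeR adjusted p = 1.70e-05). Epas1, the hypoxia factor HIF2A, had 106, 96.1 and 47.8 CPM with RA and 1.53, 0.784 and 1.14 CPM with TGFb + RA, far apart (-6.24 ± 0.39, edgeR adjusted p = 2.12e-08). Irf4, which scales with T cell receptor signal, fell (-1.36 ± 0.04, edgeR adjusted p = 4.99e-11), and Bcl6, a repressor of effector genes, rose (1.25 ± 0.06, edgeR adjusted p = 2.09e-09). Of 44 tested transcription factors, 16 rose and 21 fell.

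Costimulatory and NK receptor genes fell more often than they rose. Tnfrsf8, the activation receptor CD30, had 35.3, 30.4 and 28.5 CPM with RA and 0.741, 0.659 and 0.809 CPM with TGFb + RA, without overlap (-5.41 ± 0.19, edgeR adjusted p = 1.62e-10). The costimulatory Cd28 fell from 140.4 ± 3.72 to 41.8 ± 3.80 CPM (-1.75 ± 0.07, edgeR adjusted p = 5.35e-10) and Tnfrsf4, the gene of OX40, fell (-1.39 ± 0.08). In all, 13 of 19 tested costimulatory receptors fell and 4 rose (median -0.79). Klrb1c, the gene of NK1.1, had 53.0, 35.8 and 16.9 CPM with RA and 0.688, 1.10 and 1.07 CPM with TGFb + RA (-5.16 ± 0.51, edgeR adjusted p = 1.61e-06). Its RA libraries spread widely and all lay far above the TGFb + RA libraries. Exons of other genes on the same strand overlap 13.9% of Klrb1c's exons. Klrg1, a marker of terminal effectors, fell (-4.04 ± 0.56, edgeR adjusted p = 3.29e-05), Klra7 fell (-2.06 ± 0.17), and Klri2 (2.67 ± 0.26) and Cd7 (1.69 ± 0.10) rose, giving 7 of 20 tested NK receptors up and 10 down. Il7r, the survival receptor for IL-7, fell from 775 ± 35.3 to 408 ± 51.7 CPM (-0.93 ± 0.08, edgeR adjusted p = 2.66e-07). Of 26 tested cytokine receptors, 11 rose and 10 fell, and of 21 inhibitory receptors, 7 rose and 10 fell. The receptor chains Il4ra (-1.20 ± 0.07) and Il18rap (-2.11 ± 0.16) fell. Cx3cr1, a receptor of circulating effectors, had 5 counts over the RA libraries and 152 over the TGFb + RA libraries, a ratio of 27.1 (exact 95% interval 11.4 to 84.8).

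The 15 genes with the highest fold changes, of those with at least 5 CPM over the 6 libraries, all had group means under 5 CPM with RA alone. Cpd, the gene of carboxypeptidase D, had 3.05, 2.97 and 2.81 CPM with RA and 208, 221 and 189 CPM with TGFb + RA, 1 of the smallest adjusted p of all (6.12 ± 0.14, edgeR adjusted p = 3.19e-12). Igha, the constant region of the IgA heavy chain, had 3.87, 1.62 and 3.00 CPM with RA and 586, 528 and 423 CPM with TGFb + RA, without overlap (7.53 ± 0.19, edgeR adjusted p = 7.59e-12). The mast cell protease genes Mcpt1 (0.0910, 0.150 and 0.0476 CPM with RA and 57.6, 69.1 and 145 CPM with TGFb + RA) and Mcpt2 (8.26 ± 0.63, edgeR adjusted p = 1.23e-07) rose from 7 and 13 counts over the RA libraries, and their transcripts share no 50-base word. For Mcpt1 the ratio was 924 (exact 95% interval 448 to 2299), while its TGFb + RA libraries alone spread from 57.6 to 145 CPM. Such intervals of ratios, here and elsewhere, cover counting error only and not the spread between libraries. Apol9b rose from 7 counts (ratio 447, exact 95% interval 217 to 1114) and Apol9a from 3 (ratio 280, interval 95.5 to 1360). Of the 50-base words of Apol9b, 52.3% occur in Apol9a, so which of these copies changed is uncertain. The adenylyl cyclase Adcy5 rose from 9 counts (ratio 81.5, exact 95% interval 42.7 to 179). The kinase Src (6.12 ± 0.29, edgeR adjusted p = 2.38e-09), the ubiquitin ligase adaptor Spsb1 (5.40 ± 0.12, edgeR adjusted p = 3.19e-12), the secreted Dickkopf protein Dkk3 (4.76 ± 0.16), the Ahr repressor Ahrr (4.34 ± 0.28) and the paired receptor genes Csf2rb (4.18 ± 0.56) and Csf2rb2 (4.26 ± 0.69), of which 12.3% and 18.4% of words are shared, rose as well, and Foxp3, described above, is also among the 15.

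The lowest fold change by the same rule was that of Mmp9, a secreted gelatinase, with 227, 161 and 87.9 CPM with RA and 0.741, 1.98 and 0.662 CPM with TGFb + RA. Its RA libraries were all above 80 CPM and its TGFb + RA libraries all below 2 CPM (-7.03 ± 0.41, edgeR adjusted p = 1.22e-08). Besides Ccr2, Epas1, Tnfrsf8, Klrb1c, Ccr1 and Zfp683, the 15 lowest were the prostacyclin receptor Ptgir (-5.18 ± 0.40), the Ras regulator Dab2ip (-4.94 ± 0.42), the kinase Stk32c (-4.84 ± 0.29), Bspry (-4.74 ± 0.26), the metalloprotease Adamts14 (-4.74 ± 0.37), annexin A1, Anxa1 (-4.70 ± 0.46), the RNA-binding Igf2bp3 (-4.52 ± 0.18) and the potassium channel Kcnq5 (-4.46 ± 0.20). Anxa1, which limits inflammation, varied within the RA group, from 5.47 to 18.4 CPM.

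Genes of cell division fell, with a lower median for mitosis than for DNA replication. All 25 tested mitosis genes fell, without overlap of the libraries in any, with a median of -2.54, and 23 of 25 DNA replication genes fell, with a median of -0.91. The start regions of these genes carry known letters, shown here because the lists differ in them. TTTGAA is the core of the cell cycle genes homology region, which with CCAAT boxes is found at genes of late cell cycle, and TTTGGCGC or TTTCGCGC is a form of the E2F site of genes of early S phase. From RefSeq (GRCm38.p6), 20 genes of each list had a promoter of 250 bases before to 50 after the start, as had 9595 tested genes. On either strand, TTTGAA was in 15 of 20 mitosis promoters, 3 of 20 replication promoters and 14.4% of all. CCAAT was in 18 and 14 of 20 and in 43% of all, and the E2F letters were in 1 and 10 of 20 and in 1.86% of all. A match describes letters only and shows no binding, and no match says only that these letters are not in the window. In Mcm6, E2F matches on both strands overlap. For the 5 mitosis genes of smallest p that have a single listed start and both motifs in the 150 bases before it, these bases read as follows, 5′ to 3′ in the direction of the gene, with TTTGAA and CCAAT, or their reverse complements TTCAAA and ATTGG, in capitals.
Mki67 (chr7:135716380-135716529, - strand): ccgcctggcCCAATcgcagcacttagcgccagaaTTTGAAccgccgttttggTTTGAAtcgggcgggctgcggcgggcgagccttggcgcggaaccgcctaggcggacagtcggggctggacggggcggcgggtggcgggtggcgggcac
Top2a (chr11:99024190-99024339, - strand): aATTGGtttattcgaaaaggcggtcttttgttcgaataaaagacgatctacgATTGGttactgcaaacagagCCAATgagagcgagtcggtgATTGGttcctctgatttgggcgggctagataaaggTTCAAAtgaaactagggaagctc
Kif11 (chr19:37376232-37376381, + strand): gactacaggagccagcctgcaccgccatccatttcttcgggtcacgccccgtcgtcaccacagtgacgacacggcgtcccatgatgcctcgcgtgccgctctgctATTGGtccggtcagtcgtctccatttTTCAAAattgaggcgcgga
Cdc20 (chr4:118437344-118437493, - strand): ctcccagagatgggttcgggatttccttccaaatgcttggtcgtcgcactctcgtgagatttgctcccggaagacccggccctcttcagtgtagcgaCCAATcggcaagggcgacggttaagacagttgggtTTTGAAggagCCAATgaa
Cdk1 (chr10:69352913-69353062, - strand): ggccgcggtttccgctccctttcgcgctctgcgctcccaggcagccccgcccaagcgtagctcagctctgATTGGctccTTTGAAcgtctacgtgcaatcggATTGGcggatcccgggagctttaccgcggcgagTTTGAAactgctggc
For the replication genes chosen in the same way, capitals mark TTTGGCGC or TTTCGCGC and their reverse complements.
Orc1 (chr4:108579304-108579453, + strand): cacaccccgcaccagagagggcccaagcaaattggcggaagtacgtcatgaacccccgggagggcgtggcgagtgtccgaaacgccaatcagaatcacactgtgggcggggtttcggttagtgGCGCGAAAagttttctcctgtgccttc
Pola1 (chrX:93632156-93632305, - strand): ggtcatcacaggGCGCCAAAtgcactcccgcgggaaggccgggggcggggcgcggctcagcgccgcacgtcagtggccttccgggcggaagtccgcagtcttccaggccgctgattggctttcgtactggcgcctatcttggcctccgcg
Mcm6 (chr1:128359706-128359855, - strand): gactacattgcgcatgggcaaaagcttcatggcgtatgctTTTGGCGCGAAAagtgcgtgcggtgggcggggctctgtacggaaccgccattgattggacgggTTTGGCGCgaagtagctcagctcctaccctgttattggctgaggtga
Mcm5 (chr8:75109359-75109508, + strand): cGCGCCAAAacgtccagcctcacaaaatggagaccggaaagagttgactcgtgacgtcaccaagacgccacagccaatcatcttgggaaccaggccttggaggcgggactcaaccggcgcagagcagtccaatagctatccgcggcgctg

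Mki67, the gene of the Ki-67 antigen, had 379, 332 and 262 CPM with RA and 38.7, 55.6 and 39.9 CPM with TGFb + RA. The highest TGFb + RA library held far less than the lowest RA library (-2.85 ± 0.14, edgeR adjusted p = 3.73e-09). Nusap1, which bundles spindle microtubules, fell more (-3.22 ± 0.16, edgeR adjusted p = 3.30e-09), the checkpoint kinase Bub1b fell (-2.70 ± 0.14), and Top2a, which untangles DNA, fell less (-1.78 ± 0.09, edgeR adjusted p = 5.61e-09). Cdc6, which loads the replicative helicase at origins, fell from 13.2 ± 2.93 to 1.38 ± 0.119 CPM (-3.27 ± 0.18, edgeR adjusted p = 7.66e-09). Uhrf1, which carries DNA methylation through replication, fell (-2.97 ± 0.14), as did the polymerase Pole (-1.55 ± 0.06), while the helicase subunit Mcm3 fell less (-1.16 ± 0.07). Of 12 tested genes for D-type cyclins, their kinases, Rb1, E2f1 and CDK inhibitors, 2 rose and 9 fell, among the latter Ccnd2 (-0.71 ± 0.07), Cdk4 (-0.62 ± 0.05), Cdk6 (-0.58 ± 0.07) and E2f1 (-0.77 ± 0.09). The plot of both effects on cell cycle genes shows that TGFb without RA left most of these genes nearer to 0. There, 11 of 25 mitosis genes fell, with a median of -0.33, and 21 of 25 replication genes, with a median of -0.43. The difference between the TGFb effects passed the test for all 25 mitosis and 19 replication genes, all lower with RA, against 12.3% of all tested genes. For Mki67 the difference was -2.32 ± 0.19, edgeR adjusted p = 4.01e-06, for Nusap1 -2.90 ± 0.20, edgeR adjusted p = 1.94e-06 and for Cdc6 -2.76 ± 0.22, edgeR adjusted p = 4.01e-06.

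**Figure D2:**
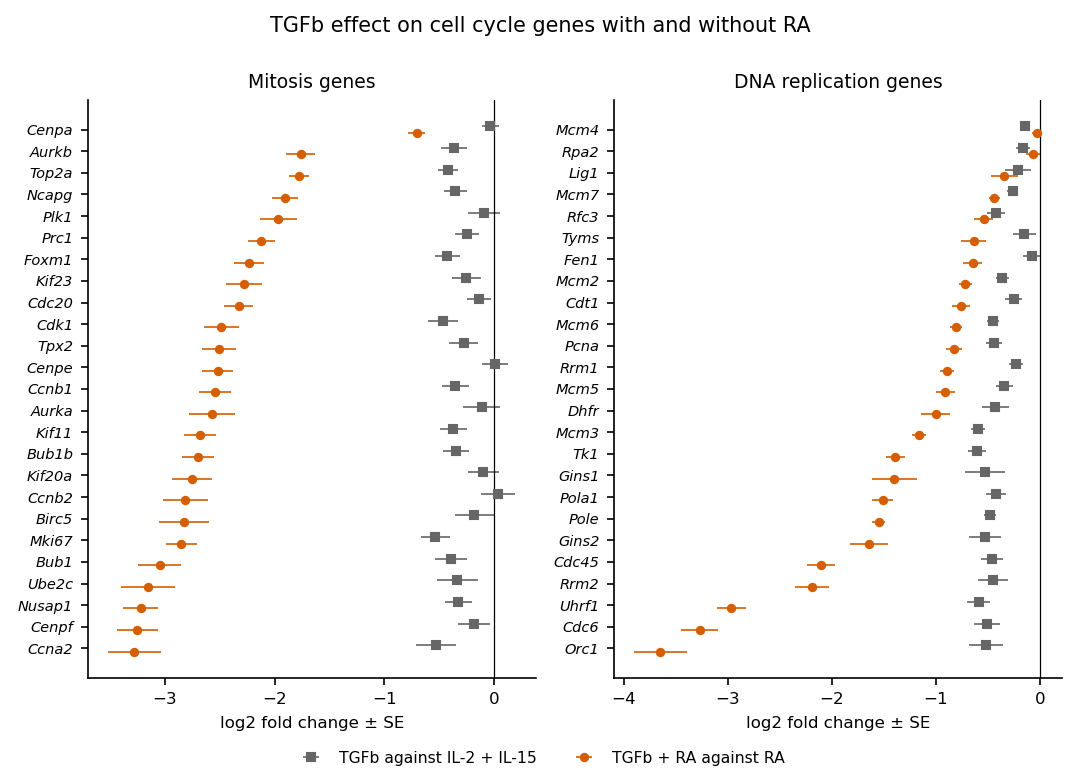
Log2 fold change ± SE of 25 mitosis genes and 25 DNA replication genes for TGFb + RA against RA (orange circles) and TGFb against IL-2 + IL-15 (grey squares), each from 3 against 3 libraries. All mitosis genes lie left of their grey squares, and the replication genes spread from near 0 for Mcm4 to -3.65 for Orc1.

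Genes of biosynthesis fell as well. Of 85 tested cytosolic ribosomal protein genes, a list made after the library shares were seen, 82 fell and none rose (median -0.95). Of 27 cholesterol and fatty acid synthesis genes, 2 rose and 23 fell (median -1.25). The desaturase Scd2 (-1.58 ± 0.06), the squalene epoxidase Sqle (-1.74 ± 0.07) and the sterol sensor Insig1 (-1.56 ± 0.06) fell. Of 23 glycolysis genes, 19 fell (median -0.86). Hk2, the inducible hexokinase, had 48.5, 50.5 and 44.1 CPM with RA and 10.6, 10.4 and 11.4 CPM with TGFb + RA, without overlap (-2.14 ± 0.07, edgeR adjusted p = 8.23e-11), and Aldoc (-2.11 ± 0.06), Tpi1 (-1.66 ± 0.06) and the lactate dehydrogenase Ldha (-0.92 ± 0.05) fell as well. Of 21 genes for amino acid transport and the ATF4 response, 2 rose and 14 fell, and the number that rose was 1 without RA replicate 1, RA replicate 3 or TGFb + RA replicate 2. Those that fell included the leucine transporter Slc7a5 (-1.58 ± 0.07), Asns (-1.96 ± 0.10) and Psat1 (-1.81 ± 0.09). Myc, which drives growth, fell from 280.5 ± 11.5 to 115 ± 2.48 CPM (-1.28 ± 0.05, edgeR adjusted p = 2.96e-10).

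**Figure D3:**
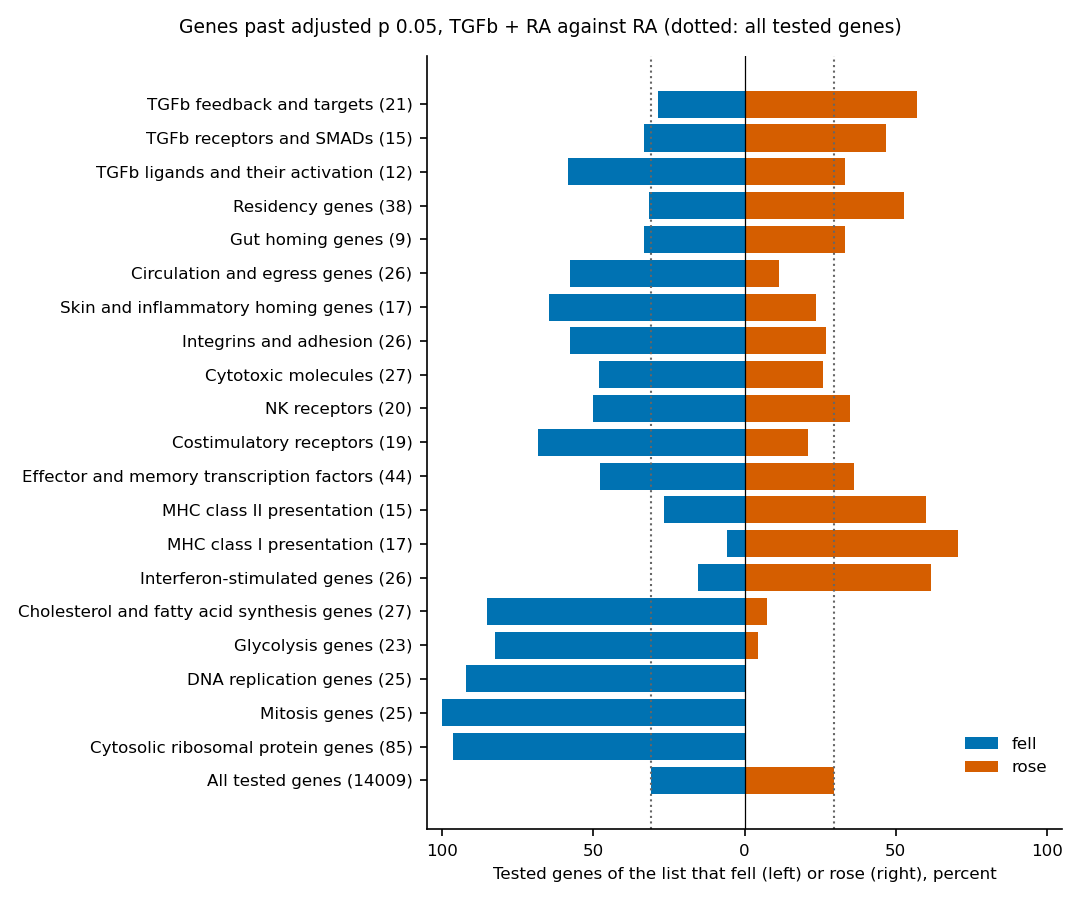
Share of the tested genes of 20 lists, and of all tested genes, that fell (left, blue) or rose (right, orange) with TGFb + RA against RA at an edgeR adjusted p under 0.05, with the number tested in brackets. Dotted lines mark the shares of all tested genes, 30.8% and 29.4%, and the mitosis, replication and ribosomal lists hold no gene that rose.

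Interferon-stimulated and antigen presentation genes rose more often than they fell. Of 26 tested interferon-stimulated genes, 16 rose and 4 fell (median 0.55). Gbp2 (1.65 ± 0.13, edgeR adjusted p = 2.27e-07) and the nucleic acid sensor Zbp1 (1.21 ± 0.10, edgeR adjusted p = 4.25e-07) rose, and Cmpk2 fell (-1.34 ± 0.13, edgeR adjusted p = 8.74e-07). Ifit3 rose (2.77 ± 0.31, edgeR adjusted p = 5.38e-06), and 51.2% of its 50-base words occur in Ifit3b. Usp18, which damps the interferon receptor, rose (0.60 ± 0.19, edgeR adjusted p = 0.0162), with TGFb + RA replicate 1 among the RA libraries, and lost its call without RA replicate 3 (adjusted p = 0.0522), TGFb + RA replicate 2 (0.0940) or TGFb + RA replicate 3 (0.0615). Oas2 had 15.4, 7.97 and 8.33 CPM with RA and 6.93, 30.2 and 21.4 CPM with TGFb + RA, so TGFb + RA replicate 1 was below all RA libraries (0.91 ± 0.38, edgeR adjusted p = 0.05). Its call was lost without RA replicate 2 (adjusted p = 0.174), RA replicate 3 (0.117), TGFb + RA replicate 2 (0.318) or TGFb + RA replicate 3 (0.113). It was also lost with DESeq2's Wald test (adjusted p = 0.12) and with edgeR on the 6 libraries alone (0.12). Of 17 MHC class I presentation genes, 12 rose and 1 fell (median 0.42), none by 2-fold, among them the peptide transporter Tap2 (0.52 ± 0.05), Tapbp (0.54 ± 0.05) and the immunoproteasome subunit Psmb10 (0.53 ± 0.06). The chaperone Canx was the 1 that fell (-0.56 ± 0.04).

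Without RA, TGFb had the opposite balance on interferon-stimulated genes: 3 rose and 16 fell, with a median of -0.51. The difference between the effects passed the test for 21 of 26, all higher with RA, against 6.95% of all tested genes. Usp18 is an example, at -1.73 ± 0.20, edgeR adjusted p = 1.03e-05 without RA and a difference of 2.32 ± 0.27, edgeR adjusted p = 6.42e-05. For Oas2 the difference was 2.98 ± 0.60, edgeR adjusted p = 0.00357 and for Ifit3 2.13 ± 0.42, edgeR adjusted p = 0.00313. Among MHC class I genes the difference was higher with RA for 9 of 17 and lower for 1. The plot of interferon-stimulated and MHC class I genes sets both effects side by side.

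**Figure D4:**
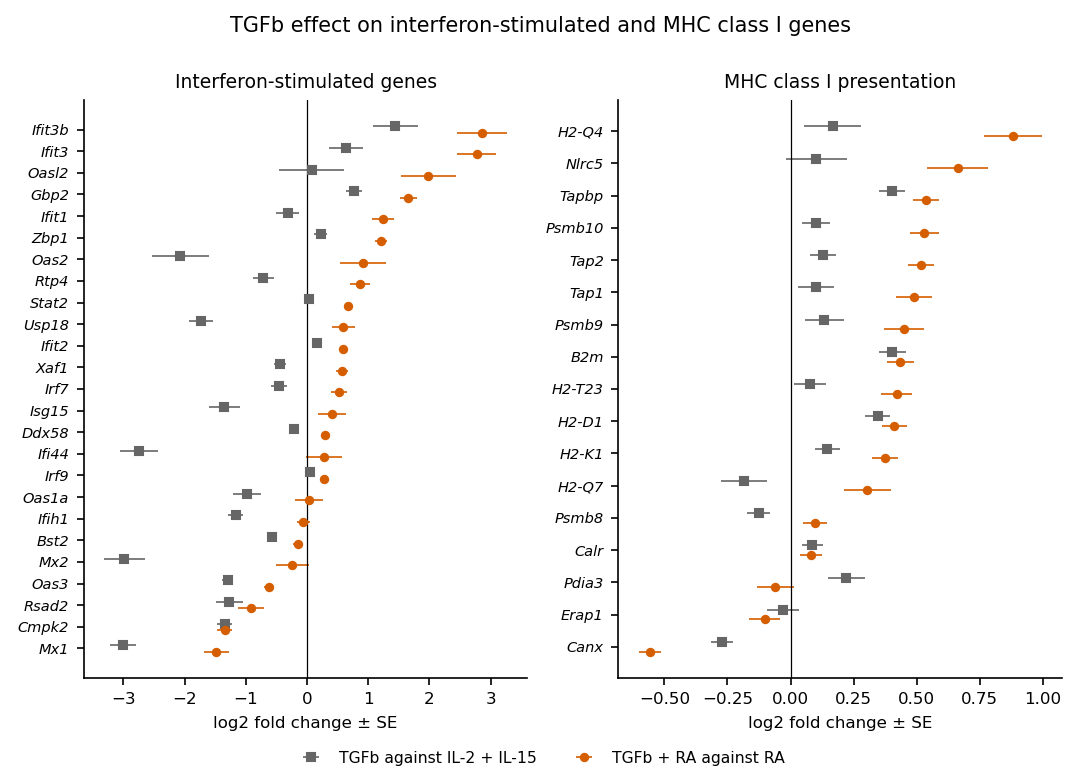
Log2 fold change ± SE of 25 of the 26 interferon-stimulated genes and 17 MHC class I presentation genes for TGFb + RA against RA (orange circles) and TGFb against IL-2 + IL-15 (grey squares), each from 3 against 3 libraries. Most orange circles of the interferon list lie to the right of 0 and of their grey squares, and Cmpk2 is at the same place in both.

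Of 15 tested MHC class II presentation genes, 9 rose and 4 fell (median 0.82). H2-Aa had 0.228, 0.338 and 1.09 CPM with RA and 3.02, 5.55 and 6.22 CPM with TGFb + RA (3.22 ± 0.41, edgeR adjusted p = 1.48e-05). The TGFb + RA libraries were all higher, yet few counts lay behind the RA values, with 37 in all. Cd74, the invariant chain (1.98 ± 0.37), its regulator Ciita (1.84 ± 0.27), H2-DMa (1.13 ± 0.14) and H2-Eb1 (0.86 ± 0.20) rose, and H2-Ab1 fell (-0.42 ± 0.09, edgeR adjusted p = 0.00143). The fall of H2-Ab1 was not the largest of the list, whose lowest log2 fold change was -1.01. Without RA, H2-Eb1 rose by more (4.32 ± 0.20, edgeR adjusted p = 3.48e-09), with a difference of -3.47 ± 0.30, edgeR adjusted p = 5.56e-06.

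Some immunoglobulin and T cell receptor gamma transcripts rose with these genes. Ighm, the constant region of IgM, had 454, 399 and 624 CPM with RA and 2335, 2049 and 1839 CPM with TGFb + RA (2.08 ± 0.15, edgeR adjusted p = 6.93e-08), and Ighd rose (2.30 ± 0.34, edgeR adjusted p = 6.38e-05). All 3 TGFb + RA libraries were above the RA libraries for both. Of 10 B cell markers, 5 were tested, of which 4 rose and none fell (median log2 fold change 2.08). In each library 3 or 4 of the 10 were at 0. The summed level of the list, mostly Ighm, ran from 402 to 636 CPM without scaling with RA and from 1928 to 2448 with TGFb + RA. Cd79a rose from 7 to 41 counts (ratio 5.23, exact 95% interval 2.32 to 13.8). Tcrg-C2 rose from 142 ± 41.9 to 471 ± 29.0 CPM (1.73 ± 0.17, edgeR adjusted p = 1.65e-06), with 18.2% of its words shared with Tcrg-C1, and Trdc, the delta chain, fell (-1.41 ± 0.24, edgeR adjusted p = 0.000213). Cd163l1, another gamma delta T cell marker, went from 84 to 4 counts, 23.5 times lower per library size (exact 95% interval 8.85 to 88.3). Of 8 such markers 5 were tested, of which 3 rose and 2 fell, and their sum, mostly Tcrg-C2 and Tcrg-C4, ran from 188 to 298 CPM with RA and from 642 to 730 with TGFb + RA. Of 8 tested NK cell markers 6 fell, among them Tyrobp (-1.96 ± 0.33) and Fcgr3 (-2.23 ± 0.34), and 1, Cd7, rose. The summed level of the list overlapped, at 169.9 to 285 CPM with RA and 253 to 305 CPM with TGFb + RA. Cd7 alone held 4080, 8100 and 6211 of the 4622, 9500 and 7420 summed counts with TGFb + RA. With RA it held 1804, 1713 and 1467 of 6544, 6097 and 3628. Of 18 myeloid and dendritic cell markers, 5 to 12 were at 0 in each library and 4 were tested, of which Itgax and Itgam (-2.26 ± 0.28, edgeR adjusted p = 1.43e-05), also known from CD8 effector cells, fell and none rose. Their sum, mostly Itgax, was 230.3 to 387 CPM with RA and 80.1 to 89.8 with TGFb + RA. Exons of other genes on the same strand overlap 68.7% of Itgam's exons, so its counts are uncertain. The part of such cells in the results was not tested.

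Against the TGFb effect without RA, which shares no library with it, the effect in RA cultures mostly had the same direction. TGFb against IL-2 + IL-15 changed 6034 genes (43.1%) at an edgeR adjusted p under 0.05. In both comparisons 4912 genes passed, 58.2% of those with RA and 81.4% of those without, 4716 in the same direction and 196 in opposite directions. The median size of the log2 fold change over all tested genes was 0.35 with RA and 0.23 without. Across 14009 genes, which are not independent replicates, the effects correlated with Pearson's r = 0.702. The difference between the effects passed the test for 2702 genes (19.3%), 974 higher and 1728 lower with RA, and for 4158 without RA replicate 3. Of the 2702, 1524 went the same way and further with RA, of which 994 fell, 256 went the same way by less, and 922 had opposite signs.

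**Figure D5:**
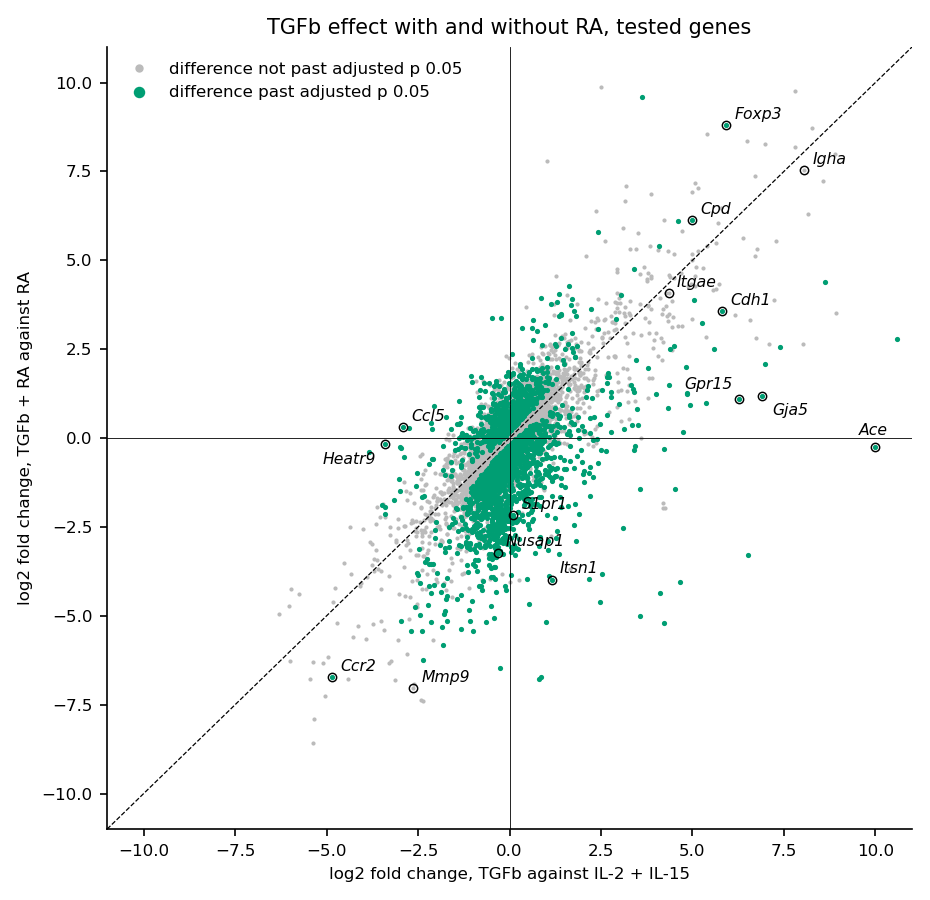
Log2 fold change of the 14009 tested genes for TGFb + RA against RA (vertical) and for TGFb against IL-2 + IL-15 (horizontal), with the 2702 genes whose difference passed an edgeR adjusted p of 0.05 in green and equal effects on the dashed line. Itgae and Igha lie near the line, Foxp3 above it, Nusap1 and S1pr1 well below it, and Ace at the right with almost no effect in RA cultures.

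Genes that TGFb raised without RA but by less or not at all in its presence were among the lowest differences. Ace, the angiotensin-converting enzyme, had 14 counts over the RA and 13 over the TGFb + RA libraries (-0.26 ± 0.48, edgeR adjusted p = 0.687), while without RA it rose from 0.0921 ± 0.0448 to 102 ± 12.7 CPM, on 8 counts in all before TGFb, a ratio of 1071 (exact 95% interval 543 to 2482). Its fitted difference, -10.25 ± 0.75, edgeR adjusted p = 2.06e-06, depends on the prior count and is no bound. Gpr15 was at 6.26 ± 0.17, edgeR adjusted p = 2.17e-11 without RA (difference -5.16 ± 0.65, edgeR adjusted p = 0.000117). Gja5, the gap junction protein connexin 40, had 75.0, 31.9 and 10.4 CPM with RA and 81.4, 97.6 and 88.1 CPM with TGFb + RA. Without RA it went from a far lower level, 1.64 ± 0.774 CPM, to 198 ± 13.2 CPM. Its RA libraries ranged widely (1.19 ± 0.41, edgeR adjusted p = 0.0238), and the call was lost without RA replicate 2 (adjusted p = 0.0889) or TGFb + RA replicate 2 (0.0622). The call was also lost with DESeq2's Wald test (adjusted p = 0.0896) and with edgeR on the 6 libraries alone (0.0747). For Gja5 the difference was -5.71 ± 0.74, edgeR adjusted p = 0.000140. Agap1 rose with RA (2.09 ± 0.28) and by more without (6.97 ± 0.27; difference -4.88 ± 0.48, edgeR adjusted p = 1.47e-05). Itsn1, a scaffold of endocytosis, fell with RA (-3.98 ± 0.32, edgeR adjusted p = 2.32e-07) and rose without (1.15 ± 0.24, edgeR adjusted p = 0.00141; difference -5.14 ± 0.40). Rgs8 (-3.14 ± 0.46 and 1.06 ± 0.18, difference -4.20 ± 0.49) also fell with RA and rose without, with 82 counts over the RA and 10 over the TGFb + RA libraries, 9.19 times lower per library size (exact 95% interval 4.75 to 19.9). Aunip, a mitotic kinase partner (-4.32 ± 0.24 and -0.37 ± 0.15, difference -3.95 ± 0.29), and the phospholipase Plcd1 (-3.86 ± 0.19 and 0.03 ± 0.11, difference -3.90 ± 0.23) fell with RA and did not pass the test without.

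The highest differences were in these genes. Ccl5 fell without RA (-2.92 ± 0.22, edgeR adjusted p = 3.15e-07) and overlapped with it (difference 3.23 ± 0.30, edgeR adjusted p = 8.70e-06). Heatr9, a neighbour of Ccl5 on chromosome 11, did the same (-0.16 ± 0.13, edgeR adjusted p = 0.334 with RA, -3.41 ± 0.19, edgeR adjusted p = 1.56e-08 without, difference 3.26 ± 0.24, edgeR adjusted p = 2.02e-06). Dtx1, a regulator of Notch, rose with RA (1.74 ± 0.19, edgeR adjusted p = 4.64e-06) and fell without (-1.05 ± 0.21, edgeR adjusted p = 0.00124; difference 2.78 ± 0.29). B3galt5, a glycosyltransferase, had a smaller fold fall with RA (-0.55 ± 0.18, edgeR adjusted p = 0.0160) than without (difference 2.34 ± 0.36, edgeR adjusted p = 0.000581). Its call within RA cultures was lost without RA replicate 2 (adjusted p = 0.0734), TGFb + RA replicate 1 (0.0703) or TGFb + RA replicate 2 (0.0590). Foxp3 rose in both, by 8.80 ± 0.22 with RA and 5.91 ± 0.20 without (difference 2.89 ± 0.46, edgeR adjusted p = 0.000675).

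Trafficking and residency genes differed too. S1pr1 was at 0.10 ± 0.11, edgeR adjusted p = 0.467 without RA, against its fall with RA (difference -2.27 ± 0.16, edgeR adjusted p = 1.94e-06). Cd69 fell slightly without RA (-0.27 ± 0.08, edgeR adjusted p = 0.0171) and rose with it (difference 1.24 ± 0.12, edgeR adjusted p = 1.05e-05). Klf2 rose without RA (1.05 ± 0.27, edgeR adjusted p = 0.00622; difference -1.595 ± 0.41, edgeR adjusted p = 0.0152). Cdh1 (5.80 ± 0.31, difference -2.23 ± 0.39, edgeR adjusted p = 0.00121) and Ahr (4.39 ± 0.18, difference -1.90 ± 0.26, edgeR adjusted p = 0.000238) had larger fold rises without RA. Cdh1 went from 5.43 ± 1.35 to 303 ± 1.62 CPM without RA and from 24.1 ± 11.8 to 287 ± 21.3 CPM with it, so its start levels differed more than its end levels. Itgae rose in both, with a difference of -0.28 ± 0.31, edgeR adjusted p = 0.584, which does not show that the effects were equal. Ccr9 had a larger fold rise without RA, from a far lower level, 4.0 ± 0.982 to 16.1 ± 2.07 CPM (difference -1.66 ± 0.23, edgeR adjusted p = 0.000229). With RA it went from 881 ± 173 to 1112 ± 61.7 CPM. Prf1 fell by more without RA (-3.49 ± 0.32, difference 1.604 ± 0.42, edgeR adjusted p = 0.0162). Gzmc fell with RA and did not pass the test without (0.83 ± 0.49, edgeR adjusted p = 0.191; difference -3.60 ± 0.68, edgeR adjusted p = 0.00220). The difference was -1.05 ± 0.11, edgeR adjusted p = 1.86e-05 for Il7r and -1.05 ± 0.15, edgeR adjusted p = 0.000361 for Prdm1, which rose without RA (0.69 ± 0.11). Irf4 rose without RA (0.27 ± 0.04, difference -1.64 ± 0.06, edgeR adjusted p = 5.06e-09), and so did the receptor Acvr1 (1.90 ± 0.30, difference -4.05 ± 0.62, edgeR adjusted p = 0.000537). The difference on Acvr1 rests on few counts in RA cultures, 45 with RA and 11 with TGFb + RA.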

How the data were processed

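Reads of 12 libraries were aligned with STAR and counted with featureCounts on GRCm38, per the submitters' processing notes; the sources used here state no version, strand setting or treatment of multiple matches. What the authors deposited are whole-number counts for each gene, without normalization. The tables list 46078 Ensembl identifiers with symbols, and these symbols are used here. Of the identifiers, 98.0% were found in GENCODE M21 (GRCm38), the source of positions, strands and exon overlaps. Where identifiers shared a symbol (270 repeated entries), it was kept for the identifier with the most counts. There were 0 entries that name no gene. The 6 libraries compared held 22946716, 27560208 and 21359384 counts (RA) and 18300206, 31120721 and 26494995 (TGFb + RA).

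Genes were filtered by filterByExpr (minimum count 10) in edgeR 4.0.16 (R 4.3.3), which left 14009, scaled by TMM and fitted in 1 quasi-likelihood model of all 12 libraries with a mean per group (8 residual degrees of freedom). Contrasts were TGFb + RA against RA, TGFb against IL-2 + IL-15 and their difference. The call threshold was 0.05 after Benjamini-Hochberg adjustment over all tested genes, and each SE was the absolute log2 value divided by the root of its F statistic. SEs of genes with few counts can understate the error. The fit was first tested on simulated counts. Alternatives were DESeq2 1.42.0, its size factors, no filter, a replicate block, a 1.5-fold threshold, only 6 libraries, and leaving out each library; for lists, the last and the 1.5-fold threshold were added after seeing the data. Where a compared group held 10 or fewer counts of a reported gene, the text gives a ratio of summed counts with its exact 95% interval (counting error only).

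The gene lists and the named genes were chosen with earlier results of these data known. Named were a panel of 32 genes, the 15 highest and 15 lowest fold changes among called genes with at least 5 CPM and no overlap (predicted models left out), up to 4 called genes per list by adjusted p with the TGFb, MHC class II and marker lists in full, the 8 highest and 8 lowest differences, and the 6 smallest adjusted p. Of 249 such genes, 196 are reported, a selection made with their values seen. Some genes that the rule names are not reported here.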

Additional observations from a re-analysis of the deposited data

Results flagged for a closer look

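The TGFb effect with RA differed from that without RA, by edgeR's test of the difference itself, for 33 of the 34 genes whose difference is given, at an adjusted p under 0.05 over all tested genes. Values are the log2 effect with RA minus that without. Lower with RA were Ace (-10.25), Gja5 (-5.71), Gpr15 (-5.16), Itsn1 (-5.14), Agap1 (-4.88), Rgs8 (-4.20), Acvr1 (-4.05), Aunip (-3.95) and Plcd1 (-3.90). By less, Gzmc (-3.60), H2-Eb1 (-3.47), Nusap1 (-2.90), Cdc6 (-2.76), Mki67 (-2.32), S1pr1 (-2.27), Cdh1 (-2.23), Ahr (-1.90), Ccr9 (-1.66), Irf4 (-1.64), Klf2 (-1.6), Rbpj (-1.47), Il7r (-1.05) and Prdm1 (-1.05) were lower as well. Higher with RA were Cd69 (1.24), Prf1 (1.6), Ifit3 (2.13), Usp18 (2.32), B3galt5 (2.34), Dtx1 (2.78), Foxp3 (2.89), Oas2 (2.98), Ccl5 (3.23) and Heatr9 (3.26). Genes were named by the rules stated with the processing, so this count is no measure of how common such differences are, which is 19.3% over all tested genes. Groups of 3 libraries were too small for a test of single outlying libraries.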

How the results depend on the processing

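The count of genes that differed between TGFb + RA and RA was 7504 to 8758 when each library was left out in turn, 8459 with DESeq2 size factors, 8376 without the filter, 8179 with DESeq2's Wald test and 7704 with only the 6 libraries, and a test against 1.5-fold left 2503 (36.1% of them higher, against 48.9%). The difference of the effects gave 2040 to 4158 genes over the libraries left out, the highest without RA replicate 3, and 586 against 1.5-fold. The share of counts in the 50 highest genes changed by -2.16 percentage points and that in the 100 highest genes by -2.964. Reversed signs were seen for Itga1 (log2 fold change -0.434 to 0.063 over the libraries left out, the highest without RA replicate 1) and for the difference on Itgae (-0.507 to 0.095, the highest without RA replicate 3), neither called at its turned value. The cause was not tested. Same-numbered RA and TGFb + RA libraries deviated together little (r = 0.019, 0.108 and 0.045), and not every library correlated best with its own number, so the numbers were not used as pairs, and whether a number marks a shared mouse or batch is not known. With the replicate block, 8675 genes differed, and 3072 in the difference, and Ccl5 (adjusted p = 0.00809) and Gpr15 (0.0166) passed and Oas2 (0.0716) no longer did, with no other call of a reported gene changed. Over all alternatives, the values of the reported genes kept direction and call in 2275 comparisons with RA, lost the call in 60, gained it in 12 and turned in 1. Low counts limit the ratios of genes nearly silent in a group. Tool settings of the counting, such as strand and multiple matches, cannot be varied from these tables.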

Other observations

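Other gene groups held genes that changed with TGFb in RA cultures, where 60.2% of all tested genes did. Of 10 tested Notch genes, 5 rose and 3 fell: the targets Nrarp (2.21 ± 0.13, edgeR adjusted p = 1.29e-08) and Dtx1 and the ligand Jag2 (0.82 ± 0.12) rose, and Rbpj, the DNA-binding partner of Notch, fell (-1.47 ± 0.07, edgeR adjusted p = 1.47e-09). Exons on the opposite strand overlap 79.4% of Nrarp. For Rbpj TGFb without RA gave 0.00 ± 0.06, edgeR adjusted p = 0.988 (difference -1.47 ± 0.09, edgeR adjusted p = 1.13e-06). Of 10 genes of Ahr and its targets, 6 rose and 1 fell, with Tiparp at 1.25 ± 0.10, edgeR adjusted p = 3.18e-07.

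Of 30 tested genes of the T cell receptor complex and proximal signalling, 12 rose and 10 fell, 1 of them by at least 2-fold (Cd8a). The adaptor Lat rose (0.87 ± 0.05, edgeR adjusted p = 1.06e-08), and Cd5 (-0.95 ± 0.07, edgeR adjusted p = 8.06e-08) and Themis (-0.74 ± 0.05, edgeR adjusted p = 2.21e-08), which tune receptor signals, fell. Of 17 tested BCL2 family survival and death genes, 4 rose and 7 fell (median -0.08). These were 64.7% of the list, near the 60.2% of all tested genes. Among them Mcl1 was higher (0.29 ± 0.05, edgeR adjusted p = 0.000107) and Bid lower (-0.70 ± 0.08, edgeR adjusted p = 3.50e-06). The adenosine receptor Adora2a fell (-2.35 ± 0.07, edgeR adjusted p = 4.99e-11) while Nt5e, which makes adenosine, rose (1.36 ± 0.07).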
